A study of Homo sapiens with 6 samples.

Results

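The 10 genes RRM2B, XPC, DDB2, POLH, FDXR, GADD45A, TIGAR, PLK2, PLK3 and FBXO22 are targets of the transcription factor p53. They are grouped here for roles in DNA repair, nucleotide supply, metabolism and protein turnover. This grouping does not exclude roles in cell cycle arrest or cell death. The 10 genes were taken by symbol from the deposited table, which lists 17047 genes, and all 10 were found. All 10 also passed the filter on low counts that left 12959 genes for testing. The libraries came from HCT116, a human colorectal cancer cell line that keeps wild-type p53. Its cells carried either shNC, a non-targeting short hairpin RNA (shRNA), or an shRNA against PLEK2 (shPLEK2), which encodes pleckstrin-2, a membrane and cytoskeletal protein. RNA-seq was run on 3 libraries of each group, numbered 1 to 3 in both, and the comparison asks which mRNA levels differ once PLEK2 is silenced. Both groups had been transduced with pLKO.1 lentivirus, and no drug treatment is given in the labels. The time between transduction and harvest is not given in the sources used here. The study's list of oligonucleotides holds a single shRNA against PLEK2, so an effect of losing PLEK2 and an effect of that shRNA on other RNAs cannot be told apart here.

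p53 is stabilised and activated when DNA is damaged or replication stalls, and it then binds response elements near its target genes. The best known targets stop the cell cycle or start apoptosis, but others work on the damage itself. XPC and DDB2 recognise damaged bases for nucleotide excision repair. POLH copies past lesions, and RRM2B supplies deoxynucleotides in cells that are not replicating. FDXR and TIGAR act in metabolism, and PLK2, PLK3 and FBXO22 act on other proteins, among them p53 itself in the case of FBXO22. p53 is regulated largely as a protein, so its activity is often judged from the mRNA levels of its targets.

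The RNA that the shRNA was designed against lies in the coding part of exon 2 of PLEK2 and is shown because every contrast here turns on it. It maps to the minus strand of GRCh38 at chr14:67397753-67397773. The capitals mark the 7 bases that pair with the seed, bases 2 to 8, of the guide strand.
PLEK2 target: gctggtgtactacAAGCTTGa
No member transcript held this sequence of 21 bases. The longest run that a member shared with it was 10 bases, in PLK2, and the other members shared 6 to 9. Of the 12360 other genes compared, 402 (3.25%) shared a run of at least 10 bases. These runs were counted in each gene's MANE Select transcript only, anywhere in the target. Matches to the seed alone were not searched for, so the runs do not show whether members hold such sites.

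A search for the p53 consensus response element gives the sequence context of the members. The element has 20 bases, a pair of 10-base units without a spacer, and reads the same on both strands. The window ran 2000 bases to either side of the start site of each gene's MANE Select transcript in GENCODE release 44, and distances are from that site to the middle of the match. The 3 sequences nearest to the consensus are shown, in the direction of the gene, with capitals for the bases that match it. They were picked after the matches had been seen.
GADD45A: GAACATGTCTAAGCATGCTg
DDB2: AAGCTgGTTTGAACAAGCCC
PLK3: GGACAAGgTTGGAgAAGTTT
The GADD45A sequence, at chr1:67686775-67686794 on the plus strand, lay in intron 3, 1584 bases after the start site. The DDB2 sequence, at chr11:47214969-47214988 on the plus strand, spanned the start site at 47214974, with 5 of its bases before it and the others in the untranslated part of exon 1. The PLK3 sequence, at chr1:44798592-44798611 on the plus strand, lay upstream of the start site, at position -1776 from it. A match with at most 1 mismatch was present in 80 of 12361 genes (0.647%) and in 2 members, GADD45A and DDB2. With at most 2 mismatches, 1105 genes (8.94%) and 3 members had a match. At 3 mismatches the share of all genes was 55.9% and 7 members had a match, so a best match of 3 or 4 mismatches, which the other 7 members had, is common. These matches describe letters in a window and say nothing of whether p53 was bound in these cells.

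The libraries held 14377532 to 15602732 estimated counts. PLEK2 itself had 86.0, 72.6 and 82.9 CPM (reads relative to library size, scaled by TMM) in shNC libraries 1, 2 and 3, and 16.02, 32.2 and 34.9 CPM in the shPLEK2 libraries. The groups did not overlap, with a log2 fold change of -1.54 ± 0.24 (SE, n = 3 per group). Its Benjamini-Hochberg adjusted p was 0.684 in edgeR's quasi-likelihood test and 0.00106 once the replicate number was added as a block. Library 1 of both groups stood apart from libraries 2 and 3 and lay on the other side of the first principal component, which held 65.5% of the variance. Same-numbered libraries deviated together, so each value is given without the block and, where it matters, with it, and with library 1 left out. Of 8 epithelial marker genes, 7 were expressed, EPCAM at 152 to 172 FPKM and KRT8 at 1822 to 2573 FPKM. LGALS4 was the exception, at no more than 0.36 FPKM. Of 6 markers of other cell types in the table, 5 were below 1 FPKM in every library and COL1A1 was at 4.26 to 5.94 FPKM. These are bulk libraries, in which a change in the number of cells that hold an mRNA and a change in its amount per cell cannot be told apart.

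No member passed an adjusted p of 0.05. Of the 12959 genes tested, 0 (0%) passed without the block, where 400 (3.09%) had an unadjusted p under 0.05 and no member did. With the block 110 genes (0.849%) passed, again with no member among them. With the block and an unadjusted p under 0.05, RRM2B, GADD45A and FBXO22 were higher in shPLEK2, 3 of 10 members against 1023 of all genes (7.89%), or 18.3% of all genes in either direction. DESeq2 called 12 genes without the block and 60 with it. No member was among them, but with the block DESeq2 gave no adjusted p for 9 of the 10 members. Of the 10 members, 7 had a positive log2 fold change, as had 49.4% of all genes tested. The members' median was 0.08, against 0.00 for all genes. Without shPLEK2 library 1, but with shNC library 1 kept, the members' median turned to -0.012, against -0.008 for all genes. Without library 1 of both groups it was 0.047 with the block and 0.048 without it, against 0.004 and 0.003 for all genes.

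**Figure D1:**
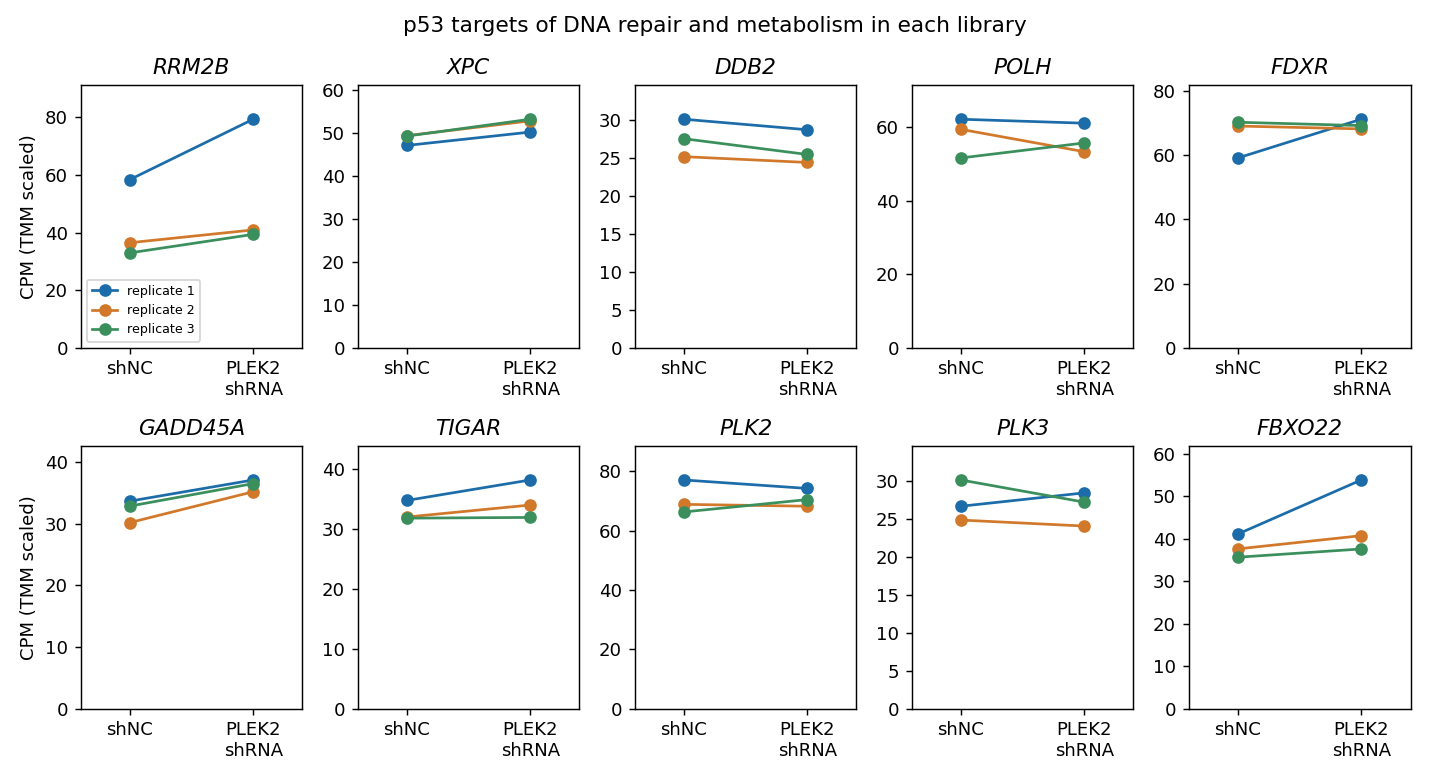
Level of each of the 10 members in CPM (vertical axes, each from 0) in the 3 shNC and the 3 shPLEK2 libraries (points coloured by replicate number, with same-numbered libraries joined by lines). XPC and GADD45A are the 2 members whose groups did not overlap, and library 1 stands above libraries 2 and 3 for RRM2B in both groups.

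In each same-numbered pair, shPLEK2 was compared with shNC. RRM2B, XPC, GADD45A, TIGAR and FBXO22 were higher in all 3 pairs, 5 of 10 members against 19.9% of all genes. DDB2 was the single member lower in all 3 pairs, against 21.1% of all genes. POLH, FDXR, PLK2 and PLK3 went in different directions in different pairs. The groups did not overlap for XPC and GADD45A, both higher in shPLEK2, which is 2 of 10 members against 4.08% of all genes. Over the members, the median log2 ratio was 0.11 in pair 1, 0.04 in pair 2 and 0.08 in pair 3.

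XPC binds distorted DNA and starts global nucleotide excision repair. The gene spans 14145147 to 14178621 on the minus strand of GRCh38 chromosome 3. XPC was at 47.1, 49.3 and 49.2 CPM in shNC and at 50.2, 52.8 and 53.1 CPM in shPLEK2. Every shPLEK2 library was above every shNC library, and the log2 ratios of the pairs were 0.09, 0.10 and 0.11. The log2 fold change was 0.10 ± 0.08 (SE, 95% interval -0.09 to 0.29), and XPC did not pass edgeR's quasi-likelihood test (adjusted p = 0.968, and 0.399 with the block). An exact permutation test of this value, two-sided, gave p = 0.1, the smallest that 3 against 3 libraries allow. Any gene whose groups do not overlap gets this p, so it adds nothing to the lack of overlap. XPC varied little between these libraries, with a pooled SD of 0.042 on the log2 CPM scale, and 2.46% of the genes tested had a smaller one. It had 699 to 803 counts per library. The spread that counting alone would give was not computed, so the small SD is not read as a trait of XPC.

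DDB2, the small subunit of the UV-damaged DNA-binding complex, brings XPC to ultraviolet lesions. The gene spans 47214465 to 47239217 on the plus strand of GRCh38 chromosome 11. DDB2 was at 30.0, 25.1 and 27.5 CPM in shNC and at 28.7, 24.4 and 25.4 CPM in shPLEK2. The ranges overlapped and library 1 was the highest in both groups. The pairs gave log2 ratios of -0.07, -0.04 and -0.11, and the log2 fold change was -0.08 ± 0.11 (SE, 95% interval -0.33 to 0.18), which did not pass edgeR's test (adjusted p = 0.968). Without shNC library 1 its direction turned, to 0.005.

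POLH is DNA polymerase eta, which inserts the correct bases opposite ultraviolet-induced dimers. The gene spans 43576185 to 43620523 on the plus strand of GRCh38 chromosome 6. POLH was at 62.2, 59.4 and 51.7 CPM in shNC and at 61.1, 53.3 and 55.7 CPM in shPLEK2. The groups overlapped over most of their range. The log2 fold change of POLH was -0.03 ± 0.10 (SE, 95% interval -0.26 to 0.20, adjusted p = 0.987 in edgeR's test), and it changed sign, to 0.006, when libraries were scaled by their totals.

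GADD45A binds proliferating cell nuclear antigen and takes part in repair and in the stress response of damaged cells. The gene spans 67685201 to 67688334 on the plus strand of GRCh38 chromosome 1. GADD45A was at 33.7, 30.2 and 32.9 CPM in shNC and at 37.1, 35.2 and 36.5 CPM in shPLEK2. The shPLEK2 libraries were all above the shNC libraries, with log2 ratios of 0.14, 0.22 and 0.15 in the pairs. The log2 fold change was 0.17 ± 0.09 (SE, 95% interval -0.04 to 0.38), and GADD45A did not pass edgeR's quasi-likelihood test without the block (adjusted p = 0.968) or with it (adjusted p = 0.212). The exact permutation test of GADD45A, two-sided, also gave its smallest possible p of 0.1, which again only restates that the groups did not overlap. With library 1 of both groups left out the value was 0.19 (adjusted p = 0.410 in edgeR's test). GADD45A is the member with the second-smallest spread, a pooled SD of 0.064. GADD45A had 428 to 584 counts per library, and the spread that counting alone would give was not computed here either.

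RRM2B encodes p53R2, the small subunit of ribonucleotide reductase that p53 induces and that supplies deoxynucleotides for repair and for mitochondrial DNA. The gene spans 102204502 to 102238961 on the minus strand of GRCh38 chromosome 8. RRM2B was at 58.4, 36.5 and 32.96 CPM in shNC and at 79.3, 40.9 and 39.4 CPM in shPLEK2. Library 1 was far above libraries 2 and 3 in both groups, so the groups overlapped, although shPLEK2 was above shNC in every pair, by log2 ratios of 0.44, 0.17 and 0.26. The log2 fold change of RRM2B was 0.32 ± 0.30 (SE, 95% interval -0.36 to 1.0) without the block, and did not pass (adjusted p = 0.968, edgeR's quasi-likelihood test).

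With the block, which removes the difference between library numbers, RRM2B had a log2 fold change of 0.30 ± 0.07 (SE, 95% interval 0.15 to 0.45) and its adjusted p in the quasi-likelihood test of edgeR was 0.0674. That is the smallest adjusted p among the members in this fit. Leaving out library 1 of both groups gave 0.22 (adjusted p = 0.112 with the block and 0.359 without it). The call of RRM2B turned on the processing. RRM2B passed edgeR's test with the block and library totals as the scale (0.33, adjusted p = 0.0439). It also passed with the block and library 3 of both groups left out (0.33, adjusted p = 0.0244). The latter fit kept 2 libraries per group, which leaves little data per gene to estimate spread, and 297 genes passed in it. With shPLEK2 library 1 alone left out, the unblocked value of RRM2B turned to -0.09. Over 20 alternatives its log2 fold change ran from -0.09 to 0.63 and its adjusted p from 0.0244 to 1.

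RRM2B and RRM2 encode alternative small subunits of the same enzyme, and RRM2 serves cells in S phase. On the FPKM scale, which allows a comparison between genes, RRM2B stood at 5.75%, 4.93% and 5.07% of RRM2 in the shNC libraries and at 8.78%, 5.43% and 5.09% in the shPLEK2 libraries. The share was highest in library 1 of each group. In each same-numbered pair it was higher in shPLEK2, by the least in pair 3. The shares of shPLEK2 libraries 2 and 3 lay within the range of shNC, whose highest value was that of library 1. RRM2 itself did not pass the test, with a log2 fold change of 0.01 ± 0.15 (SE).

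**Figure D2:**
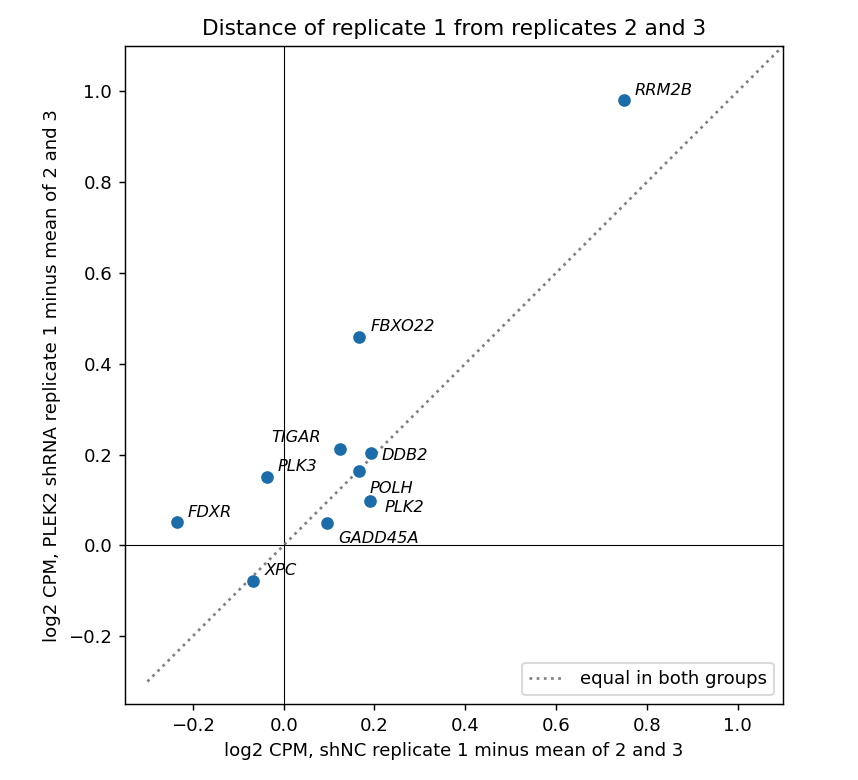
Log2 CPM of library 1 minus the mean of libraries 2 and 3, in shNC (horizontal axis) and in shPLEK2 (vertical axis), with 1 point per member and a dotted line where both groups are equal. RRM2B stands at 0.75 and 0.98, further from 0 than any other member, and XPC lies below 0 in both groups.

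The difference between library 1 and libraries 2 and 3 was larger than the shRNA contrast for RRM2B. Library 1 stood 0.75 above their mean in shNC and 0.98 above it in shPLEK2, on the log2 CPM scale. The pooled SD of RRM2B was 0.507, and 97.1% of the genes tested had a smaller one. Of all genes tested, 100 (0.772%) had library 1 as far above or below in both groups. Library 1 was the higher in both groups for 7 members, RRM2B, DDB2, POLH, GADD45A, TIGAR, PLK2 and FBXO22, against 29.0% of all genes. It was lower in both groups for XPC, against 30.6% of all genes, and FDXR and PLK3 were mixed. What set library 1 apart was not tested, and the labels name no batch.

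FDXR, ferredoxin reductase, passes electrons to ferredoxin in mitochondria for steroid and iron-sulphur cluster synthesis. The gene spans 74862497 to 74873031 on the minus strand of GRCh38 chromosome 17. FDXR was at 59.1, 69.0 and 70.1 CPM in shNC and at 71.1, 68.1 and 69.1 CPM in shPLEK2. Only shNC library 1 was apart from the others, which lay close together. Pair 1 gave a log2 ratio of 0.27 and pairs 2 and 3 gave -0.02 each, so the overall value of 0.07 ± 0.09 (SE, 95% interval -0.14 to 0.28, adjusted p = 0.968 in edgeR's test) rested on that pair. Without library 1 of both groups the value of FDXR was -0.015.

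TIGAR lowers fructose-2,6-bisphosphate and so slows glycolysis in favour of the pentose phosphate pathway. The gene spans 4307763 to 4360028 on the plus strand of GRCh38 chromosome 12. TIGAR was at 34.7, 32.0 and 31.8 CPM in shNC and at 38.1, 34.0 and 31.9 CPM in shPLEK2. The shPLEK2 library was the higher in each pair, by log2 ratios of 0.13, 0.09 and 0.01, but the groups overlapped. The log2 fold change was 0.08 ± 0.10 (SE, 95% interval -0.16 to 0.31, adjusted p = 0.968 in edgeR's test). Without shPLEK2 library 1 the value of TIGAR was 0.005, and without shNC library 1 it was 0.134.

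PLK2 and PLK3 are polo-like kinases of the stress response, distinct from the mitotic kinase PLK1. PLK2 spans 58453982 to 58460139 on the minus strand of GRCh38 chromosome 5, and PLK3 spans 44800377 to 44805990 on the plus strand of chromosome 1. PLK2 was at 77.1, 68.9 and 66.3 CPM in shNC and at 74.3, 68.3 and 70.5 CPM in shPLEK2. PLK3 was at 26.7, 24.8 and 30.1 CPM in shNC and at 28.4, 24.0 and 27.2 CPM in shPLEK2. For both kinases the shPLEK2 range lay inside the shNC range, apart from the lowest PLK3 value. The log2 fold changes did not pass edgeR's test, at 0.00 ± 0.09 (SE, 95% interval -0.20 to 0.21, adjusted p = 0.998) for PLK2 and -0.03 ± 0.12 (SE, 95% interval -0.30 to 0.23, adjusted p = 0.985) for PLK3. The sign of PLK3 turned, to 0.004, in a limma fit of the FPKM values.

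FBXO22 is the substrate-binding subunit of an SCF ubiquitin ligase that acts with the demethylase KDM4A and is reported to target methylated p53. The gene spans 75903876 to 75942511 on the plus strand of GRCh38 chromosome 15. FBXO22 was at 41.1, 37.6 and 35.7 CPM in shNC and at 53.8, 40.7 and 37.6 CPM in shPLEK2. The shPLEK2 library 1 was far above all others and the remaining libraries of the groups overlapped. The pairs gave log2 ratios of 0.39, 0.11 and 0.08. The log2 fold change of FBXO22 was 0.21 ± 0.14 (SE, 95% interval -0.11 to 0.53), with adjusted p of 0.968 without and 0.185 with the block in edgeR's test. Without shPLEK2 library 1 it was 0.04, and without library 1 of both groups it was 0.10. Of the FBXO22 transcript models, 1918 of 10707 bases overlap NRG4 on the opposite strand, and of POLH, 261 of 8368 bases overlap GTPBP2. Both neighbours are in the table. The sources used here do not say that the counting used strand, so reads of these overlaps cannot be told apart. XPC (1096 of 3650 bases, XPC-AS1) and PLK3 (98 of 2340 bases, DYNLT4) overlap opposite-strand genes, and TIGAR (1711 of 8209 bases) overlaps a gene on its own strand, none of which has a row in the table.

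**Figure D3:**
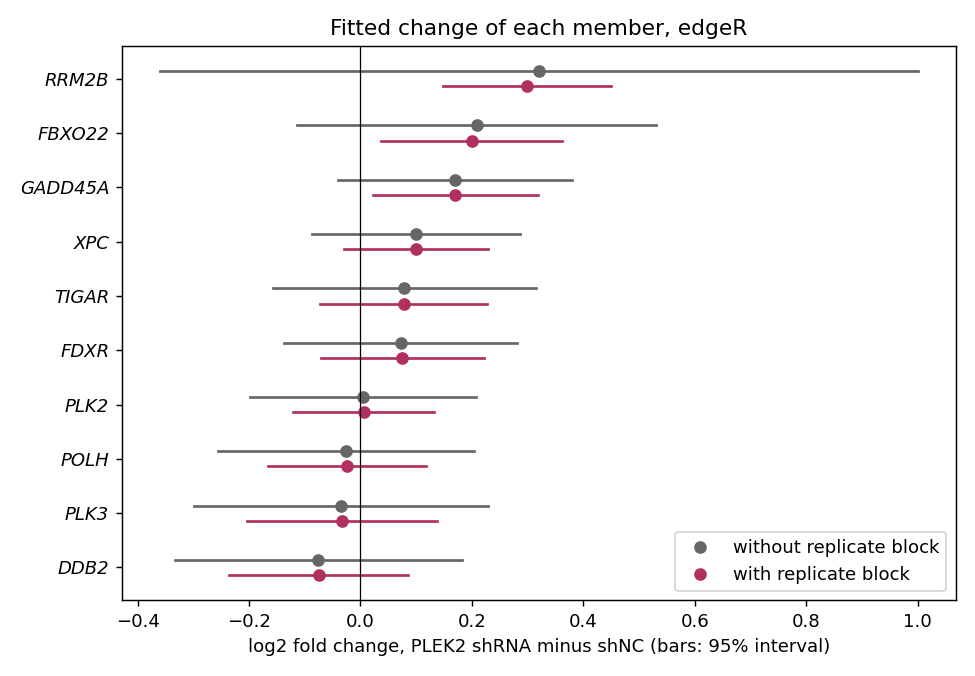
Log2 fold change of shPLEK2 over shNC with 95% intervals (horizontal axis) for the 10 members, from edgeR fits without and with the replicate block (points and bars). The intervals without the block all include 0, and with the block those of RRM2B, GADD45A and FBXO22 lie above 0.

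Per length of transcript, the members differed in level. FDXR was the highest, with a median of 37.8 FPKM over the 6 libraries, followed by GADD45A at 27.9 and PLK2 at 25.8 FPKM. FBXO22 (16.6), DDB2 (15.97), XPC (13.6), PLK3 (11.3) and POLH (11.04 FPKM) formed a middle group, and RRM2B at 8.43 and TIGAR at 4.09 FPKM were the lowest. The ranges over the 6 libraries did not overlap between FDXR and GADD45A, PLK2 and FBXO22, XPC and PLK3, or RRM2B and TIGAR. The other 5 neighbouring pairs in this order overlapped, so their ranges do not separate them. Within libraries, DDB2 was above XPC in 6 of 6.

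Genes that work with the members were examined as 8 lists, of which 39 of 42 genes were tested. In edgeR's test without the block 0 of 39 passed, with 3 at an unadjusted p under 0.05. With the block 8 were at an unadjusted p under 0.05, as were 18.3% of all genes. In that fit 1 passed, PLK1, which was lower, against 0.849% of all genes. PLK1, the kinase that drives mitotic entry, was at 252.7, 246.2 and 226.3 CPM in shNC and at 149.1, 207.9 and 181.6 CPM in shPLEK2. The groups of PLK1 did not overlap, and its log2 fold change was -0.44 ± 0.08 (SE) with the block (adjusted p = 0.028 in edgeR's test). In the 14 genes of nucleotide excision repair that work beside XPC and DDB2, 0 passed in either fit and the median log2 fold change was 0.02. The smallest unadjusted p there belonged to RBX1, a subunit of cullin ligases including the DDB2 ligase, at -0.25 ± 0.10 (SE). For the 7 genes of translesion synthesis the median was 0.06, for the 4 ferredoxin partners of FDXR 0.08 and for the 5 ligase partners of FBXO22 0.08, with 0 passing in any of them. For the 2 other ribonucleotide reductase genes it was 0.04, and for the 4 enzymes of fructose-2,6-bisphosphate 0.06, again with 0 passing. GADD45B, a relative of GADD45A, was at -0.21 ± 0.11 (SE) and did not pass. Over all 39 genes the median was 0.04. Of the 39 genes, 28 (71.8%) had a positive log2 fold change, against 49.4% of all genes. In all 3 pairs 13 (33.3%) were higher and 6 (15.4%) were lower, against 19.9% and 21.1% of all genes.

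Other p53 targets were set beside the members from lists of the same kind. Of the 11 tested genes of cell cycle arrest and feedback, 2 passed with the block, CDKN1A and ZMAT3, against 0.849% of all genes. Without the block 0 passed, with 1 at an unadjusted p under 0.05. With the block 10 of the 11 had an unadjusted p under 0.05 in edgeR's test, against 18.3% of all genes in either direction. MDM2, which was lower, is among these 10. CDKN1A, the cyclin-dependent kinase inhibitor p21, had a log2 fold change of 0.35 ± 0.06 (SE) with the block (adjusted p = 0.022 in edgeR's test). ZMAT3, an RNA-binding protein, had 0.38 ± 0.07 (SE, adjusted p = 0.022). The median of this list was 0.35 without the block, against 0.08 for the members. Of its 11 genes, 8 were higher in all 3 pairs, against 19.9% of all genes. The list's median log2 ratio was 0.45 in pair 1, 0.11 in pair 2 and 0.19 in pair 3. MDM2, the ubiquitin ligase that degrades p53 and is induced by it, was the 1 gene of the list lower in all 3 pairs, by log2 ratios of -0.41, -0.07 and -0.23, and did not pass edgeR's test with the block (log2 fold change -0.24 ± 0.07 SE, adjusted p = 0.101). It is named here after its values had been seen. Library 1 was above libraries 2 and 3 in both groups for all 11 genes of this list, against 29.0% of all genes. Of the 12 tested genes of cell death, 0 passed in either edgeR fit, with 1 at an unadjusted p under 0.05 without the block and 3 with it, where 18.3% of all genes were. Among the cell death genes 7 were higher in all 3 pairs, against 19.9% of all genes, and the median was 0.12. Of the 7 upstream regulators of p53, 0 passed in either fit, also at an unadjusted p under 0.05, and the median was -0.01. The differences between these lists were not tested.

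**Figure D4:**
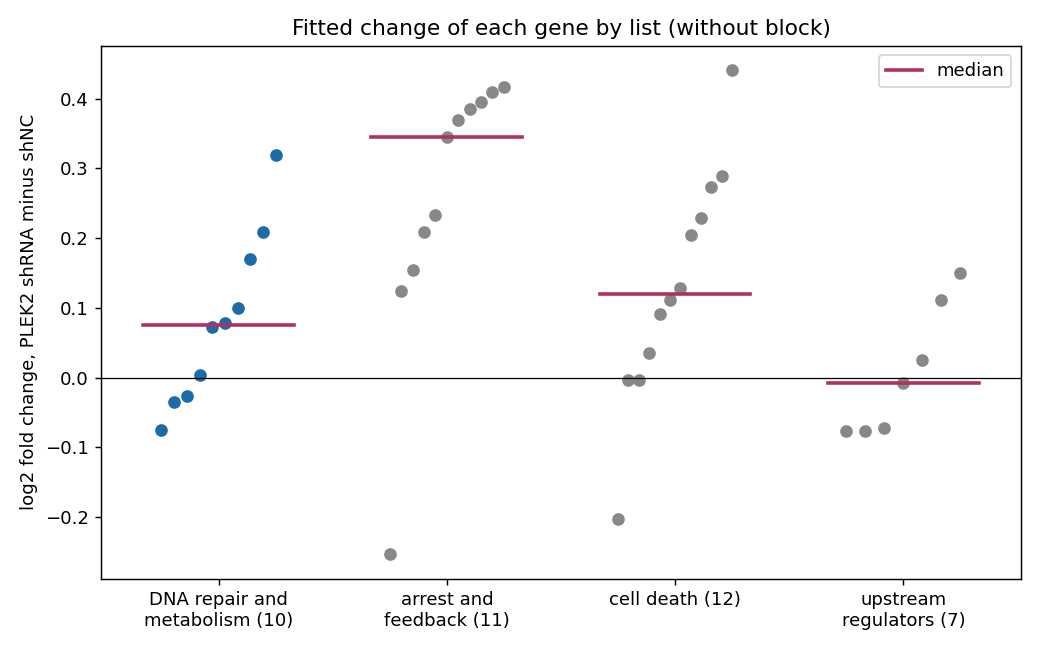
Log2 fold change of shPLEK2 over shNC, without the block, for each tested gene (points) among the 10 members and in 3 other lists of p53 genes, with a line at each list's median. The medians are 0.08 for the members and 0.35 for cell cycle arrest and feedback.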

How the data were processed

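RNA-seq of HCT116 cells gave 3 shNC and 3 shPLEK2 libraries, grouped by the labels. Reads were single-end, 50 bases long, from poly(A)-selected RNA. The deposited table holds estimated counts and FPKM values, which the authors made with the tools their processing notes name, HISAT2 2.0.4, Bowtie2 2.2.5, RSEM 1.2.12 and DESeq2 1.4.5, with no role given for each. The notes name the mouse build GRCm38.p6, whereas the gene identifiers and symbols in the table are human, so the build behind the values is unsure and the coordinates given are those of GENCODE 44 on GRCh38. Columns with the authors' group averages were not used.

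The deposited counts were rounded and filtered on low counts (filterByExpr), scaled by TMM, and tested with edgeR 4.0.16 in R 4.3.3 (quasi-likelihood test, Benjamini-Hochberg over 12959 genes, threshold 0.05). CPM, SDs and ratios were computed from the same counts. DESeq2 1.42.0, limma 3.58.1 on the authors' FPKM values with pseudocounts of 1 and 0.1, other scalings and filters, a replicate block and leaving out libraries were alternatives. The scripts were tested on simulated data. Library totals were 14377532 to 15602732. How far this depth limited precision was not tested, also for members such as DDB2 and PLK3, with 352 to 461 counts per library.

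Replicate numbers were treated as pairs where every same-numbered pair's deviations from the group means correlated above 0.1 over 10161 genes. The values were 0.736, 0.558 and 0.554, against -0.629 to 0.358 for different numbers. Numbers 2 and 3 also correlated above 0.1 with each other across the groups, at 0.358 and 0.355. The threshold alone thus does not set them apart, and it was applied to the same counts as the blocked tests. The sources used here do not say whether libraries came from separate cultures, so p-values measure only the spread between these libraries.

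The members and lists were chosen with earlier results of these data known. All members and PLEK2 are named. From each other list, genes past an adjusted p of 0.05 in either fit are named, or else at most the gene with the smallest unadjusted p. RRM2 and MDM2 were named in addition, after their values had been seen. The rule for the consensus search, the fewest mismatches, was also settled after a first search. Another gene close to the members' profile is not reported here.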

Additional observations from a re-analysis of the deposited data

How the results depend on the processing

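Of 12959 genes, 0 passed without the block. The number was 12 with DESeq2, 110 with the replicate block, 192 with the block and library totals, and 60 with the block and DESeq2. It was 0 to 1 with 1 library left out (1 without shPLEK2 library 1), and 18 to 528 with the block and 1 library number left out (528 without number 1, 18 without number 2 and 297 without number 3). It was 33 without the block and without library 1 of both groups, an alternative chosen after seeing the data. Among the members, 0 passed except RRM2B, so 1 passed with the block and library totals (0.332) and with the block and library 3 left out (0.328). XPC, GADD45A, TIGAR and FBXO22 kept a positive sign under all 20 alternatives, with ranges of 0.085 to 0.131, 0.134 to 0.215, 0.005 to 0.135 and 0.038 to 0.311. The block alone changed no member's call.

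The members' median of 0.0753 ran from -0.012 (without shPLEK2 library 1) to 0.093 with 1 library left out and from 0.047 to 0.113 with the block and 1 number left out. PLEK2 passed with DESeq2 (-1.53), with the replicate block (-1.57), with the block and library totals (-1.54), without the block and library 1 of both groups (-1.21), and without shPLEK2 library 1 (-1.26). With 1 library left out it ran from -1.74 to -1.26, and with the block and 1 number left out from -1.78 to -1.21, where it passed each time. The block with DESeq2 gave PLEK2 no adjusted p.

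Signs turned for 6 members. POLH was 0.006 with library totals, 0.007 with the block and library totals, 0.033 and 0.036 with limma at pseudocounts 1 and 0.1, 0.044, 0.004 and 0.017 without shNC library 1, shNC library 2 or shPLEK2 library 2, and 0.053 with the block without number 2. PLK3 was 0.004 with limma at both pseudocounts, 0.054 and 0.032 without shNC library 3 or shPLEK2 library 2, and 0.036 with the block without number 3. PLK2 was -0.005, -0.031 and -0.029 without shNC library 2, shNC library 3 or shPLEK2 library 1, and -0.024 with the block without number 3. DDB2 was 0.005 without shNC library 1, RRM2B -0.087 without shPLEK2 library 1, and FDXR -0.015 without number 1, with and without the block. With 1 library left out, the ranges were -0.087 to 0.631 for RRM2B, -0.147 to 0.005 for DDB2, -0.09 to 0.044 for POLH, -0.031 to 0.084 for PLK2 and -0.086 to 0.054 for PLK3. Where an arm kept 2 libraries, the spread was pooled over the rest. The cause of these changes was not tested.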

Other observations

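Across the 6 libraries, the mean level of the 10 members, each centred on its own mean of log2 CPM, was 0.05, -0.09 and -0.08 in shNC libraries 1, 2 and 3 and 0.19, -0.05 and -0.03 in shPLEK2 libraries 1, 2 and 3. The highest value was that of shPLEK2 library 1 and the next that of shNC library 1. The members were not scaled to equal spread. RRM2B, with the largest pooled SD among them (0.507, next FBXO22 at 0.205), weighs most in this mean. Among 10151 other genes, SARNP and TDP2 were among those that followed this profile most closely, each with a Pearson r of 0.997 over the 6 libraries. The points share the libraries, of which library 1 of both groups stands apart, and no test was made.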
